A study of Mus musculus with 5 samples.

Results

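Immune checkpoint receptors and ligands were examined in RNA-seq of CRC tumours as 10 genes, matched by symbol among the 54113 named genes of the deposited table. They comprise the receptors Pdcd1, Ctla4, Lag3, Tigit, Havcr2 and Btla and the ligands Cd274, Pdcd1lg2, Cd80 and Cd86. The rule names genes by symbol and uses no measured value, and all 10 were found. The members were, however, chosen with earlier results of these data known. The 5 libraries came from tumours of C57BL/6 mice inoculated with MC38 cells, a mouse colorectal cancer line, and kept for 2 weeks at 30 °C (n = 3, thermoneutral control) or at 4 °C (n = 2, cold). The labels give no other treatment or allele, and the comparison asks how the tumours differ after cold. For its cold exposures in general, the study's methods describe C57BL/6 mice of both sexes, some weeks old, that were first adapted to an intermediate temperature. Neither the age nor the sex of the sampled mice is in the labels, which also do not say whether a library holds RNA of 1 or of several mice. The study's figure legend for these data counts 3 and 2 biological samples, without saying whether each is a separate mouse. If libraries of a group share a mouse, the p-values below measure technical spread only.

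Checkpoint receptors are surface proteins of lymphocytes that dampen activation when they meet a ligand. PD-1, the product of Pdcd1, recruits phosphatases to the antigen receptor after binding PD-L1 (Cd274) or PD-L2 (Pdcd1lg2), whereas CTLA-4 competes with the activating receptor CD28 for CD80 and CD86. LAG-3, TIGIT, TIM-3 (Havcr2) and BTLA act through other ligands, and antibodies that block several of these proteins are used or tested against tumours. In bulk tissue, fewer cells of a type and less RNA per cell cannot be told apart, so a level here is that of the tissue and not of a T cell.

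The libraries held 16191708 to 20320525 counts on named genes, and 1 count equalled 0.0492 to 0.0618 CPM, the unit of counts scaled to a library of 1000000 counts. Of the genes, 16133 passed the filter on low counts and were tested, including all 10 checkpoint genes, which had 41 to 4919 counts per library. The label of tumour tissue was compared with lists of cell type markers. The 10 markers of MC-38 and other epithelial cells summed to 18.4 to 124 CPM. In contrast, 9 erythroblast markers reached 15442 to 41557 CPM, 10 B cell markers 1518 to 4596 CPM, and 10 markers of spleen stroma and red pulp 890 to 1961 CPM. The epithelial markers were thus low beside those of blood-forming and lymphoid tissue in every library. These levels go against the label of a colorectal tumour, so the samples are called libraries at 30 °C or 4 °C from here on, and the identity of the tissue was not tested further. Pancreatic acinar markers summed to 205819 CPM in 30 °C replicate 2 and to 1854 CPM in 4 °C replicate 2, against 19.2 CPM in the lowest library. In 30 °C replicate 2 these pancreatic transcripts took up a large share of all counts, which lowers the CPM of every other gene there. For this reason, folds were computed after scaling by the trimmed mean of M values (TMM), whose factor was 0.738 for 30 °C replicate 2 and 1.03 to 1.13 in the other 4 libraries. In the list of spleen stroma and red pulp, TMM-scaled means at 30 °C were 485 for Vcam1, 370 for Slc40a1 and 239 for Cr2. Tlx1 and Nkx2-3 had 16.2 and 16.8, Madcam1 10.5 and Nkx2-5 4.57. Vcam1 is also on the macrophage list and Cr2 on the B cell list, so these lists are not separate. The part of library content in the differences below was not tested.

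The levels of the checkpoint genes were first compared with each other per length, as CPM per kilobase of exon. Btla was the highest at 47.5 ± 18.7 and Cd86 the next at 20.98 ± 5.42 (mean ± SD over 5 libraries), and these genes ranked first and second in every library. Cd274 followed at 10.9 ± 3.16. Tigit, Lag3 and Havcr2 lay close together at 8.59 ± 1.55, 8.51 ± 3.01 and 7.61 ± 2.94, and their order changed between libraries. The 4 lowest were Pdcd1 at 3.59 ± 1.26, Cd80 at 2.67 ± 0.650, Pdcd1lg2 at 2.32 ± 0.839 and Ctla4 at 2.14 ± 0.672. Within a library, Btla exceeded Cd86, Cd86 exceeded Cd274 and Havcr2 exceeded Pdcd1 in 5 of 5 cases. Inside a library, the ratio to the next gene was 1.70 to 2.63 for Btla over Cd86, 1.68 to 2.18 for Cd86 over Cd274 and 1.65 to 2.88 for Havcr2 over Pdcd1. For each of the other 6 neighbouring pairs the order turned in at least 1 library, and those neighbours did not differ beyond the spread.

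**Figure D1:**
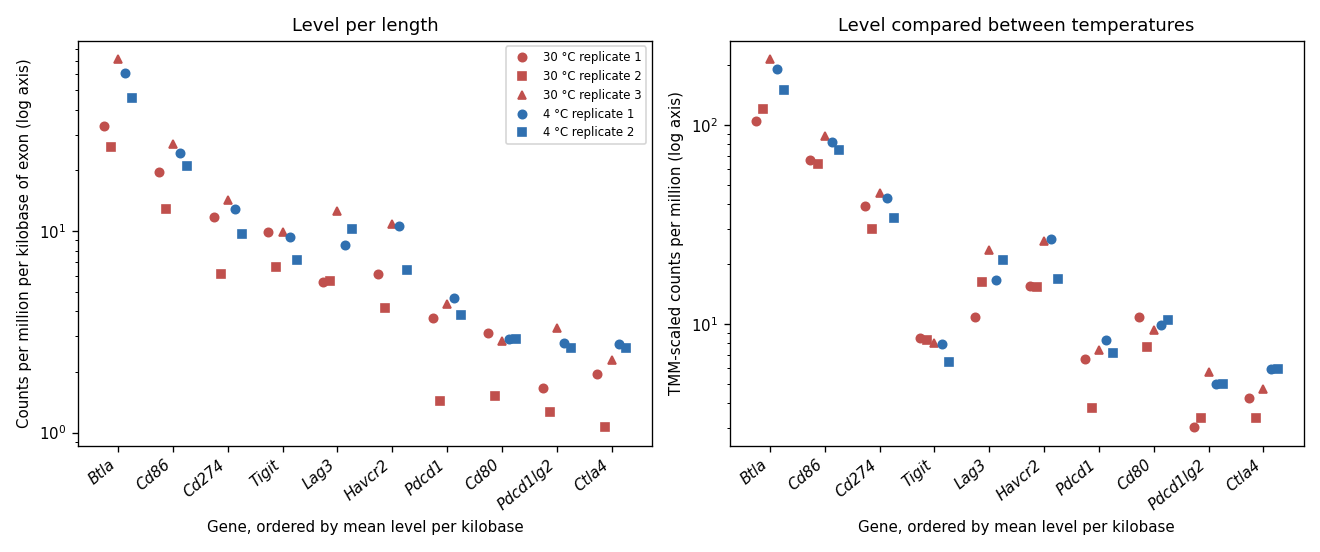
Levels of the 10 checkpoint genes in each library. Left, CPM per kilobase of exon, and right, TMM-scaled CPM, both on log axes, with 1 point per library, red for 30 °C and blue for 4 °C. Btla is the highest in all 5 libraries on the left, and Ctla4 and Tigit are the genes whose temperature groups do not overlap on the right.

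No checkpoint gene passed the test between 4 °C and 30 °C. In the quasi-likelihood test of edgeR, 0 of 10 had a Benjamini-Hochberg adjusted p under 0.05, as was the case for 0% of the 16133 genes tested. Even at an unadjusted p under 0.05 the count of checkpoint genes was 0, beside 2.58% of all genes tested that were higher and 4.17% that were lower at 4 °C. The Wald test of DESeq2 also called 0 checkpoint genes, beside 118 called over all genes. It gave Pdcd1lg2 no adjusted p, so this gene could not be called there. The fitted log2 fold changes (4 °C over 30 °C) were above 0 for 9 genes and below 0 for Tigit, with a median of 0.18 beside 0.0064 over all genes tested. They ranged from −0.20 to 0.52. All 10 of the 95% confidence intervals included 0. Their upper bounds lay between 1.31-fold (Tigit) and 2.34-fold (Ctla4), and their lower bounds between 0.580-fold (Tigit) and 0.880-fold (Ctla4), so the missed threshold does not show that levels were equal.

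**Figure D2:**
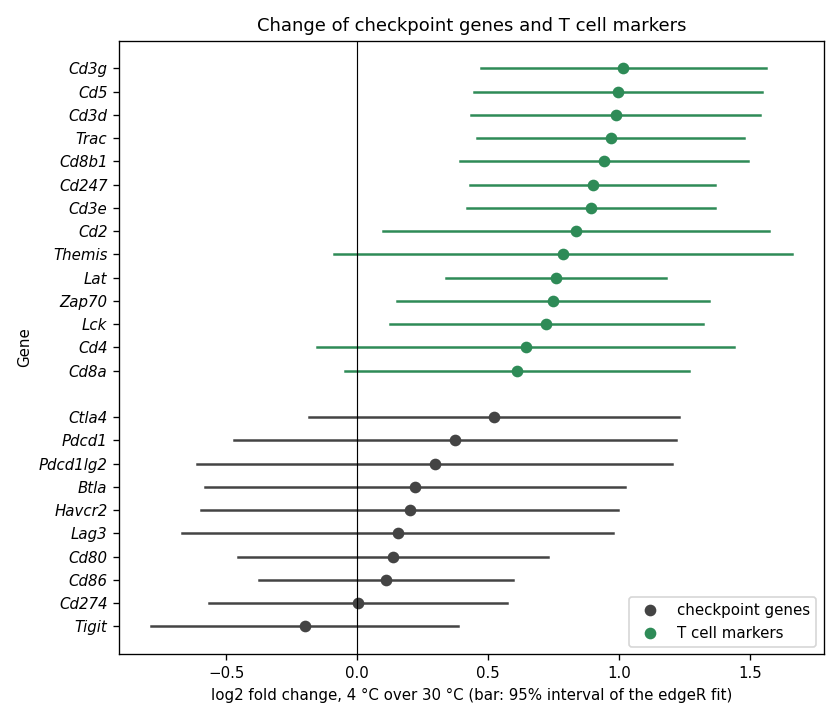
Log2 fold change of the 10 checkpoint genes (grey) and of 14 T cell markers (green), 4 °C over 30 °C. Bars are the 95% confidence interval computed from the F statistic of the edgeR fit. All 10 grey intervals include 0, whereas 11 of 14 green intervals lie above 0. The intervals are not adjusted for the number of genes, and 0 of the 14 markers passed the adjusted edgeR test. Of all genes tested, 2.58% were higher and 4.17% lower at an unadjusted p under 0.05 by edgeR.

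Pdcd1 encodes the receptor PD-1 of activated and exhausted T cells and lies on chromosome 1 (94038305 to 94052553, minus strand, GRCm38). Its level was 7.15, 2.78 and 8.37 CPM in the libraries at 30 °C and 8.97 and 7.41 CPM at 4 °C. The lowest library was 30 °C replicate 2, and the groups overlapped because 30 °C replicate 3 exceeded 4 °C replicate 2. After TMM scaling, the 3 control libraries averaged 5.95 ± 1.92 (SD, n = 3) and the 2 cold libraries 7.75 ± 0.789 (SD, n = 2). The fitted log2 fold change was 0.37 (SE 0.35, 95% confidence interval −0.47 to 1.22, adjusted p = 0.870 by edgeR), and it was 0.13 without 30 °C replicate 2 and 0.57 without 30 °C replicate 3.

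The genes of both PD-1 ligands are neighbours on chromosome 19, with Cd274 at 29367455 to 29388095 and Pdcd1lg2 at 29410919 to 29471161, both on the plus strand and 22.8 kb apart. Cd274 encodes PD-L1, which many tissues make under interferon, and Pdcd1lg2 encodes PD-L2, mainly of macrophages and dendritic cells. Cd274 reached 42.3, 22.1 and 51.6 CPM at 30 °C and 46.4 and 35.1 CPM at 4 °C. The 2 cold libraries lay inside the range of the 30 °C libraries. Its fitted log2 fold change was 0.0021 (SE 0.24, 95% confidence interval −0.57 to 0.57, adjusted p = 0.998 by edgeR), and its sign turned under several settings. Reads of an antisense gene that shares 511 exonic bases with Cd274 cannot be told apart from it if strand was not used in counting.

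Pdcd1lg2 was lower than Cd274 in every library. It reached 3.26, 2.48 and 6.50 CPM at 30 °C and 5.43 and 5.13 CPM at 4 °C, where both values lay below 30 °C replicate 3 and above the other 30 °C libraries. The fitted log2 fold change was 0.30 (SE 0.38, adjusted p = 0.904 by edgeR), which became 0.12 without 30 °C replicate 1, 0.17 without 30 °C replicate 2 and 0.64 without 30 °C replicate 3. Per length, Cd274 exceeded Pdcd1lg2 by 3.71-fold to 7.03-fold across the 5 libraries. Pdcd1 stood at 0.317, 0.236 and 0.304 of the level of Cd274 per length at 30 °C and at 0.363 and 0.396 at 4 °C. These receptor-to-ligand ratios did not overlap between the groups, as was also the case for Btla over Tnfrsf14 among the 7 ratios computed. The difference was not tested, and no share over all gene pairs is given. With 3 libraries against 2, the smallest two-sided exact permutation p that such a separation can have is 0.2.

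The sequences before the start sites of the PD-1 receptor gene and of both ligand genes are shown because these 3 genes form 1 axis, and because the receptor gene differs from the others in a motif. Each is the run of 250 bases upstream of the RefSeq start site, 5′ to 3′ on the gene's strand, from GRCm38.p6, at chr1:94052554-94052803 (minus) for Pdcd1, chr19:29367188-29367437 (plus) for Cd274 and chr19:29410669-29410918 (plus) for Pdcd1lg2. Capitals mark a match to GGAAA, the core bound by NFAT factors, or to the longer GGAANNGAAA of ETS and IRF factors, on either strand.
Pdcd1: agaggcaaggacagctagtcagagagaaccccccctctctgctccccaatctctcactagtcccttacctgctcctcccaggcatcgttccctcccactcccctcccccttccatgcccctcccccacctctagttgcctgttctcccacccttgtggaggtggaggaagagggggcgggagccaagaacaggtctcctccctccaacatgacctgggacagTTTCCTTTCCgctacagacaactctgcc
Cd274: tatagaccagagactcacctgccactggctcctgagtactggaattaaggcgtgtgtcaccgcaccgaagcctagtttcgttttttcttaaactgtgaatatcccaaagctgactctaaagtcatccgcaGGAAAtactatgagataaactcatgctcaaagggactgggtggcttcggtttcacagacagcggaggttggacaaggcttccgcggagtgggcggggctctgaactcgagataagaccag
Pdcd1lg2: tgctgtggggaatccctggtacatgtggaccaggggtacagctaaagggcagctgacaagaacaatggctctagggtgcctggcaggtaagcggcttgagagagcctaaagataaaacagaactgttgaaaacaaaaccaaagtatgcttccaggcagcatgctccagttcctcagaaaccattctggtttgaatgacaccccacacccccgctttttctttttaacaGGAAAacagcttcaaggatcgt
The upstream sequence of 8 of the 10 genes was found in the RefSeq table, and Cd86 and Lag3 had no entry. GGAAA or its reverse TTTCC was present in 5 of the 8 (Pdcd1, Cd274, Pdcd1lg2, Ctla4 and Tigit), beside 55.6% of 32851 upstream windows of the same length. GGAANNGAAA was present only in Pdcd1 among the 8, as TTTCCTTTCC starting 28 bases before the start site, and in 2.30% of all windows. This match overlaps 2 matches to the shorter core. GAAANNGAAA, the core of the interferon-stimulated response element, and TTCNNNGAA, the interferon-gamma activated site, were in none of the 8 windows and in 2.98% and 7.02% of all windows. A match is a description of the letters, and no binding was measured.

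Ctla4, on chromosome 1 (60887000 to 60915832, plus strand), encodes the inhibitory receptor of activated and regulatory T cells. It had the lowest mean level per length of the 10 genes, although Pdcd1lg2 was lower in some libraries. Its fitted fold change was the largest of the 10. It measured 4.58, 2.48 and 5.31 CPM at 30 °C and 6.39 and 6.11 CPM at 4 °C. Both cold libraries exceeded all 3 control libraries, and Ctla4 was the only 1 of the 10 genes for which the groups did not overlap in CPM. Among all genes tested, 11% were higher at 4 °C without overlap and 5.41% were lower, so 1 in 10 is close to the background. On the TMM scale, the group at 30 °C averaged 4.11 ± 0.685 (SD, n = 3) and that at 4 °C averaged 5.92 ± 0.0091 (SD, n = 2). The fitted log2 fold change was 0.52 (SE 0.29, 95% confidence interval −0.18 to 1.23, unadjusted p = 0.122, adjusted p = 0.798 by edgeR), and it stayed between 0.39 and 0.64 under 13 other settings. Ctla4 stood at 0.431 to 0.776 of the level of its activating counterpart Cd28 per length, and this ratio overlapped between the groups.

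Cd80 and Cd86, the shared ligands of CTLA-4 and CD28 on antigen-presenting cells, lie on chromosome 16 (38455561 to 38496335, plus strand, and 36603869 to 36666081, minus strand). Cd86 was the more abundant in every library, by 6.26-fold to 9.48-fold per length. Cd80 measured 11.6, 5.62 and 10.6 CPM at 30 °C and 10.7 and 10.8 CPM at 4 °C. Apart from 30 °C replicate 2, Cd80 lay between 10.6 and 11.6 CPM in every library. Cd86 measured 71.8, 46.8 and 99.2 CPM at 30 °C and 88.9 and 77.3 CPM at 4 °C, again inside the range at 30 °C. The fitted log2 fold changes were 0.14 for Cd80 (SE 0.25, adjusted p = 0.931 by edgeR) and 0.11 for Cd86 (SE 0.20, adjusted p = 0.932), and without 30 °C replicate 2 they were 0.0059 and 0.013.

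Lag3, on chromosome 6 (124904361 to 124911705, minus strand), encodes a receptor of activated T cells and NK cells that binds MHC class II. Its levels were 11.7, 11.9 and 26.5 CPM at 30 °C and 18.1 and 21.6 CPM at 4 °C. The 30 °C group thus held both the lowest and the highest libraries. For Lag3 the fitted log2 fold change was 0.15 (SE 0.34, 95% confidence interval −0.67 to 0.98, adjusted p = 0.945 by edgeR) and fell below 0 without 30 °C replicate 1 or without 4 °C replicate 2.

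Tigit, on chromosome 16 (43648867 to 43664146, minus strand), encodes a receptor of T cells and NK cells that shares the ligands PVR and Nectin-2 with the activating receptor CD226. It varied least among the 10 genes, with 1.49-fold between its highest and lowest libraries in CPM. The levels were 9.09, 6.11 and 9.05 CPM at 30 °C and 8.60 and 6.61 CPM at 4 °C, and they overlapped. After TMM scaling they became 8.46, 8.30 and 8.03 at 30 °C and 7.96 and 6.41 at 4 °C, which no longer overlapped, with both cold libraries lower. On this scale 12.2% of all genes tested were higher and 11% lower at 4 °C without overlap, beside Ctla4 and Tigit with 1 gene in each direction. The fitted log2 fold change of Tigit was −0.20 (SE 0.24, 95% confidence interval −0.79 to 0.38, adjusted p = 0.895 by edgeR). It was below 0 under all 13 other settings.

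Havcr2, on chromosome 11 (46454935 to 46481255, plus strand), encodes TIM-3, which T cells, macrophages and dendritic cells carry. The levels were 16.6, 11.3 and 29.3 CPM at 30 °C and 28.8 and 17.4 CPM at 4 °C. Each group held 1 library near 29 CPM, and the groups overlapped. Its fold change on the log2 scale was fitted at 0.20 (SE 0.33, adjusted p = 0.926 by edgeR) and became −0.17 without 4 °C replicate 1.

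Btla, on chromosome 16 (45224315 to 45257670, plus strand), encodes a receptor that B cells carry at high levels, besides T cells and dendritic cells, and that binds HVEM, the product of Tnfrsf14. It measured 113, 88.8 and 242 CPM at 30 °C and 207 and 155 CPM at 4 °C. The 30 °C libraries spanned both cold values, and 30 °C replicate 3 was the highest of all. The fitted log2 fold change was 0.22 (SE 0.33, 95% confidence interval −0.58 to 1.02, adjusted p = 0.919 by edgeR). It was 0.028 without 30 °C replicate 1, 0.088 without 30 °C replicate 2, 0.60 without 30 °C replicate 3, 0.037 without 4 °C replicate 1 and 0.37 without 4 °C replicate 2. Per length, Btla stood at 1.39, 1.10 and 2.28 times the level of Tnfrsf14 at 30 °C and at 2.86 and 4.47 times at 4 °C. This ratio did not overlap between the groups and was likewise not tested.

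Lists of markers of the cells that carry these proteins were read beside the checkpoint genes. Of them, only the T cell sums did not overlap between the groups in CPM. The 14 T cell markers summed to 445, 355 and 743 CPM at 30 °C and to 978 and 960 CPM at 4 °C. All 14 had a log2 fold change above 0 (median 0.86, against 0.0064 over all genes tested) and 11 (78.6%, against 2.58% of all genes tested that were higher) had an unadjusted p under 0.05, but none passed the adjusted test. The marker lists were chosen with earlier results of these data known, and genes of 1 list are not independent of each other. These counts and shares therefore describe the lists and are not separate evidence. Markers of spleen stroma and red pulp moved in the same direction, with 9 of 10 above 0, a median of 0.62 and 4 at an unadjusted p under 0.05, although their sums overlapped. The erythroblast sums were 15442 to 30234 CPM at 30 °C and 34150 to 41557 CPM at 4 °C, without overlap in CPM. The median log2 fold change of the 9 markers was −0.48. In CPM, 3 of the 9 were higher at 4 °C without overlap and 2 lower, beside 11% and 5.41% of all genes tested. On the TMM scale 0 were higher and 2 lower, beside 12.2% and 11%. For Hba-a1 the TMM-scaled level was 10904 in 30 °C replicate 2 and 9020 in 4 °C replicate 1. The part of these tissues in the T cell difference was not tested. For example, the log2 fold change was 0.89 for Cd3e and 0.99 for Cd3d, parts of the T cell receptor complex. B cell markers summed to 1518 to 4274 CPM at 30 °C and 3649 to 4596 CPM at 4 °C, with 10 of 10 above 0 and a median log2 fold change of 0.69. By contrast, regulatory T cell markers had a median of 0.14, NK cell markers 0.0049 and macrophage markers 0.21, and dendritic cell markers had 0.37. The summed levels of these 4 lists overlapped between the groups, from 32.8 to 62.3 CPM for regulatory T cells and from 88.4 to 195 CPM for NK cells. Dendritic cell markers summed to 337 to 764 CPM at 30 °C and 631 to 778 CPM at 4 °C, and macrophage markers to 1460 to 2725 and 2452 to 3197 CPM. No marker of these 6 lists was at 0 in all libraries. Follicular helper T cell markers, of which 5 of 6 were tested, had a median log2 fold change of 0.29 and summed to 135 to 355 CPM.

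Receptor counts were therefore also expressed per 100 counts on the 14 T cell markers. Tigit had 2.04, 1.72 and 1.22 at 30 °C and 0.879 and 0.688 at 4 °C, a log2 difference of −1.06. Both cold libraries were lower than all control libraries, as they were for Lag3 (log2 difference −0.63), Havcr2 (−0.64), Btla (−0.57) and Ctla4 (−0.31). Pdcd1, at 1.61, 0.784 and 1.13 against 0.918 and 0.772, overlapped (log2 difference −0.42, two-sided exact permutation p = 0.4). For the 5 genes without overlap, the two-sided exact permutation p was 0.2, which is the smallest that 3 libraries against 2 allow, and it was 0.4 after Benjamini-Hochberg adjustment over the 12 ratios computed. On this scale 66.5% of all genes tested were lower at 4 °C without overlap, since the denominator was higher there. With such a background, 5 of 6 receptors is not a result about checkpoint genes. Btla per 100 counts on 10 B cell markers was 7.45, 5.76 and 5.66 at 30 °C and 4.50 and 4.26 at 4 °C (log2 difference −0.51, two-sided exact permutation p = 0.2), where 35.5% of all genes tested were lower without overlap.

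**Figure D3:**
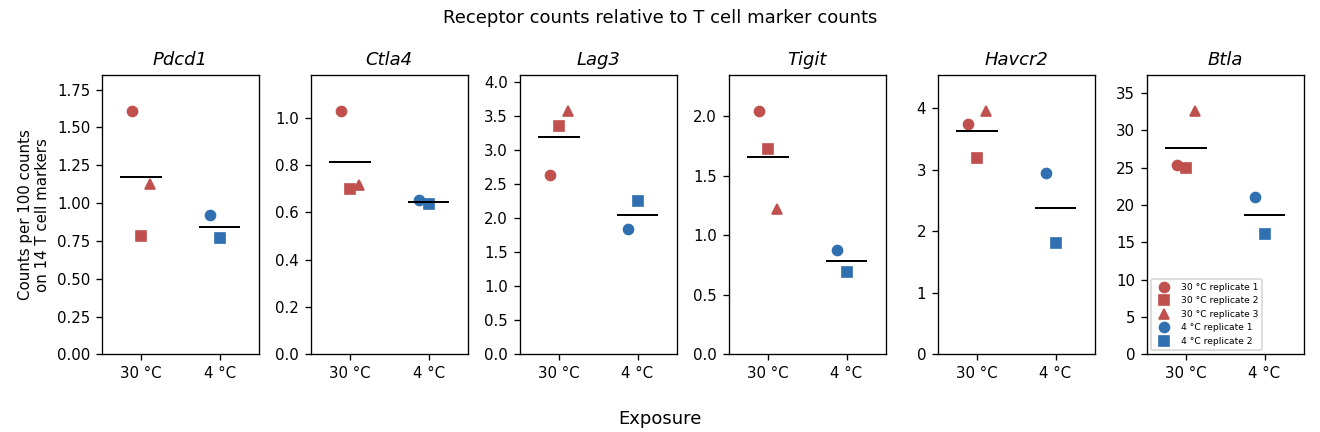
Counts of 6 receptor genes per 100 counts on 14 T cell markers, 1 point per library with a line at the group mean, and each vertical axis starting at 0. The points at 4 °C lie below those at 30 °C for every gene but Pdcd1, as they do for 66.5% of all genes tested.

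The ligands were set against the summed counts of the macrophage and dendritic cell markers. Here the groups overlapped for Cd274, Pdcd1lg2, Cd80 and Cd86, and for Havcr2, so that 0 of 5 were lower at 4 °C without overlap, beside 20.9% of all genes tested. The log2 differences were −0.25 for Cd274, 0.091 for Pdcd1lg2, −0.12 for Cd80, −0.14 for Cd86 and −0.060 for Havcr2, with two-sided exact permutation p values of 0.6 to 1. Cd86, for instance, had 2.30, 2.61 and 2.96 counts per 100 marker counts at 30 °C and 2.75 and 2.02 at 4 °C.

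Other genes of the pathway were read from 4 lists of 60 genes, of which 55 were tested. These lists too were chosen with earlier results of these data known, so the shares below only describe them. None of the 55 passed the adjusted test in edgeR. Of the 55, 43 had a log2 fold change above 0 and 12 below 0, with a median of 0.29 against 0.0064 over all genes tested. At an unadjusted p under 0.05, 8 were higher (14.5%, against 2.58% of all genes tested) and 2 were lower (3.64%, against 4.17%). In CPM, 14 were higher without overlap (25.5%, against 11% of all genes tested) and 1 was lower, against 5.41% of all genes tested.

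Among partners and further checkpoint genes, 10 were above 0 and 8 below. Ceacam1, a ligand of TIM-3 that epithelial and myeloid cells also make, had 75.5, 36.5 and 53.2 CPM at 30 °C and 36.6 and 24.0 CPM at 4 °C (log2 fold change −0.96, SE 0.27, adjusted p = 0.689 by edgeR). Tnfrsf14, the partner of BTLA, had 34.4, 34.3 and 45.0 CPM at 30 °C and 30.6 and 14.7 CPM at 4 °C (log2 fold change −0.89, SE 0.34, adjusted p = 0.709). All 3 control libraries exceeded both cold ones for Tnfrsf14, whereas for Ceacam1 the groups overlapped in CPM, through 30 °C replicate 2. On the TMM scale Ceacam1 did not overlap, at 70.2, 49.5 and 47.2 against 33.9 and 23.2. Cd200, which restrains myeloid cells, had a log2 fold change of 0.72 (SE 0.25, adjusted p = 0.702 by edgeR). The remaining direct partners had smaller values with intervals that included 0: Cd28 0.44, Cd226 0.34, Pvr 0.32, Nectin2 0.19 and Lgals9, another ligand of TIM-3, −0.48. Fgl1, a ligand of LAG-3 made by liver, had 3 to 7 counts per library and was not tested.

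The costimulatory receptors and ligands of the tumour necrosis factor family had 8 of 8 tested genes above 0, with a median log2 fold change of 0.64. Cd27, a receptor of resting T cells, had 11.8, 8.59 and 17.3 CPM at 30 °C and 26.6 and 27.4 CPM at 4 °C. Both cold libraries were higher than every control library (log2 fold change 1.01, SE 0.22, 95% confidence interval 0.49 to 1.54, unadjusted p = 0.00303, adjusted p = 0.689 by edgeR), and this was the 1 pathway gene that DESeq2 called. Tnfrsf18, which encodes GITR, had a log2 fold change of 0.76 and Cd40, of B cells and antigen-presenting cells, 0.76, neither past the adjusted test. Cd70 and Tnfsf4 had 1 to 13 counts per library and were not tested.

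Of 18 signalling and exhaustion genes, 15 were above 0 and the median log2 fold change was 0.24. Tcf7, a transcription factor of naive and memory T cells, had 83.4, 63.1 and 131 CPM at 30 °C and 183 and 152 CPM at 4 °C (log2 fold change 0.77, SE 0.22, adjusted p = 0.689 by edgeR). Sh2d1a, an adaptor of lymphocyte receptors, had 0.84 (SE 0.25, adjusted p = 0.692), and Ptpn6, the phosphatase SHP-1 that inhibitory receptors recruit, 0.29 (SE 0.19, adjusted p = 0.831). For Tcf7 the groups did not overlap. Of the interferon-gamma axis, 10 of 11 tested genes were above 0 with a median of 0.26. Its chemokine targets Cxcl9 and Cxcl10 had log2 fold changes of 0.79 each (SE 0.29 and 0.26, adjusted p = 0.709 and 0.694 by edgeR), and Gbp2 had 0.46. Ido1 of this list and Vtcn1 of the partner list were not tested for low counts. Ifng itself had 0.20 (SE 0.40).

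The genes whose profiles over the 5 libraries were nearest to each checkpoint gene were named among the 151 tested genes of the other lists. Nearness was the root mean square difference of log2 TMM-scaled CPM after centring each gene on its own mean over the 5 libraries, where 0 is identity. Cd80 lay near Ifngr2 (0.066) and Ifngr1 (0.086), the receptor chains for interferon-gamma. Tigit was nearest to Tnfsf14 at 0.060, a ligand of HVEM. Pdcd1lg2 was nearest to Nt5e at 0.069, Btla and Havcr2 both to an NFAT factor (Nfatc1 and Nfatc2, each at 0.082), and Ctla4 to Nkx2-3, a factor of spleen stroma, at 0.086, followed by Irf1 (0.121) and Foxp3 (0.123). Pdcd1 had Pvr (0.13) and Foxp3 (0.18) as its nearest genes. Cd274 and Cd86 shared Inpp5d as their nearest, at 0.11 and 0.089, and Lag3 was nearest to Slc40a1 at 0.11. Against the mean profiles of whole lists, Lag3 lay nearest to NK cell markers (0.057), and Ctla4 (0.089) and Pdcd1 (0.21) to markers of spleen stroma and red pulp. Cd80 was about as near to macrophage markers (0.113) as to the interferon-gamma axis (0.115). Btla (0.14), Havcr2 (0.15) and Pdcd1lg2 (0.15) lay nearest to the signalling and exhaustion genes, and Cd274 (0.15), Cd86 (0.13) and Tigit (0.16) to the partners and further checkpoint genes. For Btla the B cell list was farther, at 0.29. Such distances over 5 libraries describe these libraries, which also share their depth and tissue content.

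**Figure D4:**
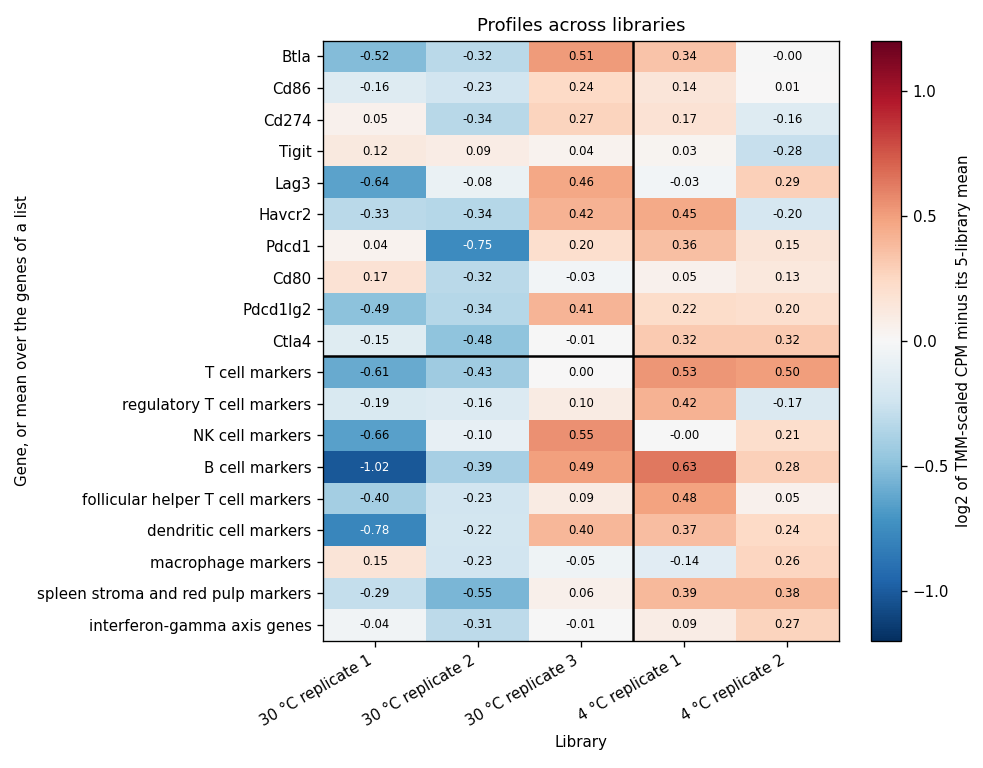
Log2 of TMM-scaled CPM minus its mean over the 5 libraries, for the 10 checkpoint genes (above the line) and as the mean over the genes of 9 lists (below the line), with the value in each cell. Lag3 and the NK cell markers share their low value in 30 °C replicate 1 and their high value in 30 °C replicate 3, while the T cell markers are highest in both libraries at 4 °C.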

How the data were processed

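Total RNA of the tumours was prepared with a TruSeq kit and sequenced. The authors deposited whole-number read counts per gene, made with featureCounts v2.0.0 on Gencode vM19 (GRCm38). The submitters' processing notes also name fastp, HISAT and RSEM without a role. The strand setting is not given in the sources used here. Of the 54446 entries, 333 without a name (0.0101% to 0.0170% of counts) were left out, and of 97 symbols shared by several entries the highest stood for the gene. The values 41 to 4919 for checkpoint genes are raw counts. Coordinates and exon lengths came from GENCODE M21.

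Low counts were removed by edgeR 4.0.16 (filterByExpr, R 4.3.3). The groups were compared after TMM scaling by its robust quasi-likelihood test without covariates, adjusted over 16133 genes. DESeq2 1.42.0, which the study used, other scalings and filters, removal of acinar genes, the replicate number as a block and each library left out in turn were alternatives. Exact permutation tests used scipy 1.17.1. The edgeR and DESeq2 tests were also run on simulated counts, in which no difference in tissue content between libraries was set. The outcome is not reported, so no conclusion is drawn from it. Named genes are the 10 checkpoint genes, their direct partners, the 3 genes with the smallest p of each pathway list, the first genes of the T cell list and the nearest profiles. Ifng is named as an example after its values were seen. A gene or more that the rule names is not reported here. The members and lists were chosen with earlier results of these data known. No batch is given for the libraries.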

Additional observations from a re-analysis of the deposited data

How the results depend on the processing

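The count of checkpoint genes called was 0 under each of 14 alternatives run, although Pdcd1lg2 had no adjusted p in DESeq2. Over all genes, 118 were called by DESeq2, 44 with a replicate block and 1090 at an unadjusted p under 0.05, against 0 in edgeR. Of the pathway genes, DESeq2 called 1 and the unadjusted p 10. The replicate block changed no call of a checkpoint gene or pathway gene. Samples share only a number. Over genes, the deviations of same-numbered libraries from their group means correlated at −0.25 (replicates 1) and 0.26 (replicates 2). With 2 libraries at 4 °C, these deviations are equal and opposite there, so the check cannot decide whether libraries are paired. The count of checkpoint genes whose groups did not overlap was 2 with TMM-scaled CPM, 2 with upper-quartile scaling and 1 to 7 when a library was left out. It was 7, all higher at 4 °C, without 30 °C replicate 3. There 26.6% of all genes tested were also higher without overlap and 7.4% lower. Without 30 °C replicate 1 it was 2, both higher, beside 22.4% higher and 6.9% lower. Without 30 °C replicate 2 it was 2, 1 in each direction, beside 11.7% and 17.5%. Without 4 °C replicate 2 it was 2, both higher, beside 24.8% and 11.5%. Without 4 °C replicate 1 it was 1, higher, beside 26.8% and 17.3%. The TMM count stands beside 12.2% higher and 11% lower. The count stayed at 1 in CPM computed without acinar genes, an alternative chosen after seeing the data. No share over all genes is given for this setting or for upper-quartile scaling. The log2 fold change of Cd274 turned to −0.012 by DESeq2, RLE scaling and a minimum of 10 counts, −0.0014 without a filter and −0.013 without acinar genes, and ranged from −0.17 to 0.15 when a library was left out. These ranges were −0.082 to 0.48 for Lag3 and −0.17 to 0.50 for Havcr2. Per macrophage and dendritic cell counts, they were −0.58 to 0.068 for Cd274, −0.13 to 0.32 for Pdcd1lg2, −0.24 to 0.0012 for Cd80, −0.37 to 0.078 for Cd86 and −0.55 to 0.43 for Havcr2 (log2 difference). The cause was not tested. With 3 libraries against 2, the confidence intervals computed from the edgeR fit allow up to 2.34-fold (Ctla4), so smaller differences may have been missed.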
